A study of Brachypodium distachyon with 6 samples.

Results

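The genes described here are those whose transcripts were higher in every bdmute library than in every wild-type library of mature leaf from Brachypodium distachyon, a small grass used as a model for cereals. They were chosen by their read counts in the same 6 libraries: a gene had at least 50 counts in each bdmute library, and its lowest bdmute value in CPM (a gene's count scaled to the library's total) was at least 1.5 times its highest wild-type value. Of the 36647 genes counted, 66 met this rule, and all 66 were among the 20998 genes that passed a filter on low counts. The same rule turned round, with wild type above bdmute, was met by 90 genes.

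The mutant plants carried sid/bdmute-1, a single allele, and were set against the line Bd21-3 (wild type, WT). All plants of both genotypes were seedlings raised for 7 days at 20 °C on plates. RNA came from the zone 25 to 30 mm above the base of the second leaf, and each library pooled 25 such pieces, so that a value is an average over pieces. There were 3 libraries of each genotype, and nothing in the labels says whether they came from separately grown batches of plants, so the spread between libraries may be partly technical.

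A grass leaf grows from its base, so tissue far from the base holds cells that have finished dividing and differentiating. In the epidermis of grasses, a stoma is made of paired guard cells flanked by subsidiary cells, which take up and release ions and water as the pore moves. MUTE is a basic helix-loop-helix transcription factor of the stomatal lineage. In Brachypodium it moves from the guard mother cell into the neighbouring cells that become subsidiary cells, and bdmute plants form stomata without them. In such a pool of leaf pieces, more cells of a type and more RNA per cell cannot be told apart.

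The files give no names for the genes, and a search of 31335 RefSeq entries (assembly Brachypodium_distachyon_v3.0) found 0 of their identifiers, so the members could not be sorted by function, the MUTE transcript could not be located and no cell type marker could be read. Each total ran between 22910448 and 34294407 counts. Both libraries numbered 3 stood apart from those numbered 1 and 2: among the 14160 genes with at least 50 counts in each bdmute library, the median ratio of CPM in library 3 to the mean of libraries 1 and 2 was 1.30 in bdmute and 1.34 in WT. Libraries are numbered as in the count table. The submitters number their samples 1, 2 and 5, and which of these is the third column is known only by genotype.

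The 66 members varied widely in how far the genotypes stood apart. The lowest bdmute library exceeded the highest WT library by 11.3-fold in the first member, by 1.73-fold at the median and by 1.51-fold in the last. The gap was at least 2-fold in 23 members, at least 3-fold in 5 and at least 10-fold in 2. Between genotype means, the ratio ran from 1.77 to 28.4 with a median of 3.14, and it reached 2 in 63 members, 4 in 21 and 10 in 5. Over all genes tested, 5.58% had every bdmute library above every WT library, and 3% had the opposite pattern. On TMM-adjusted CPM, in which library sizes are rescaled so that most genes are level, 4.30% had bdmute above WT and 5.04% had WT above bdmute, so which direction is more frequent depends on the scaling. The ratios of the members chose them and are a description without a test.

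**Figure D1:**
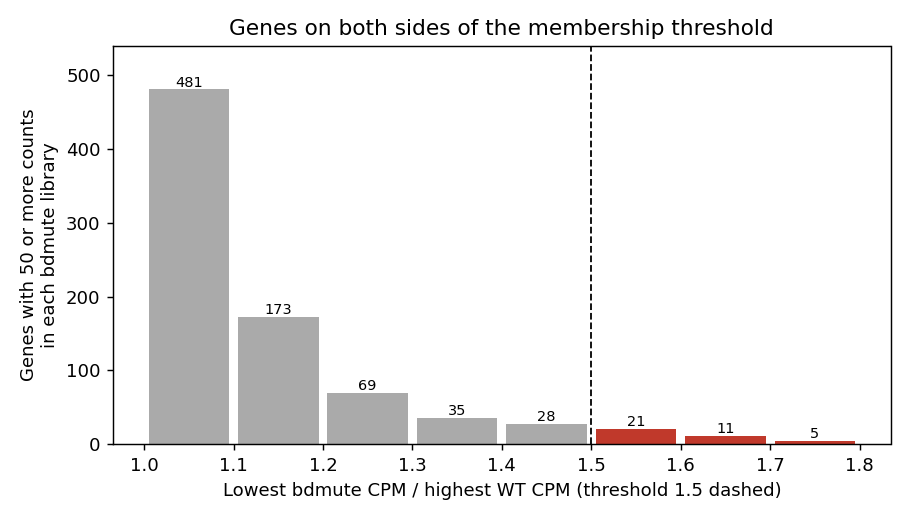
Number of genes (y axis, those with 50 or more counts in each bdmute library) by the ratio of the lowest bdmute CPM to the highest WT CPM (x axis, in steps of 0.1). Grey bars lie below the threshold of 1.5 and red bars are members. Counts fall smoothly across it, with 28 genes between 1.4 and 1.5 and 21 between 1.5 and 1.6. Bars are drawn from 1.0 to 1.8 only, so the members with larger ratios are not shown.

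The threshold did not separate distinct classes of genes. The plot of genes on both sides of it shows 481 genes with a ratio from 1.0 to 1.1, 69 from 1.2 to 1.3, 28 from 1.4 to 1.5 and 21 from 1.5 to 1.6. The 2 members closest to it had ratios of 1.508 and 1.510, and the 5 nearest genes outside had ratios from 1.471 to just under 1.5. Another 48 genes passed the fold but had from 10 to 49 counts in their lowest bdmute library.

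Most members were genes of moderate count. Mean CPM in bdmute was under 10 in 15 members, from 10 to 100 in 37 and over 100 in 14. Their median was 27.6 CPM in bdmute and 8.66 CPM in WT, and the bdmute median of all 14160 genes with 50 counts in each bdmute library was 14.9 CPM. The rule selects for high bdmute values, so nothing is read from the members' higher bdmute median. The WT median of the 14160 genes is not given here. In 3 members every WT library lay under 1 CPM. At the minimum of 50 counts, counting error alone is 14.1% of the value, and 8 members had fewer than 100 counts in their lowest bdmute library.

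**Figure D2:**
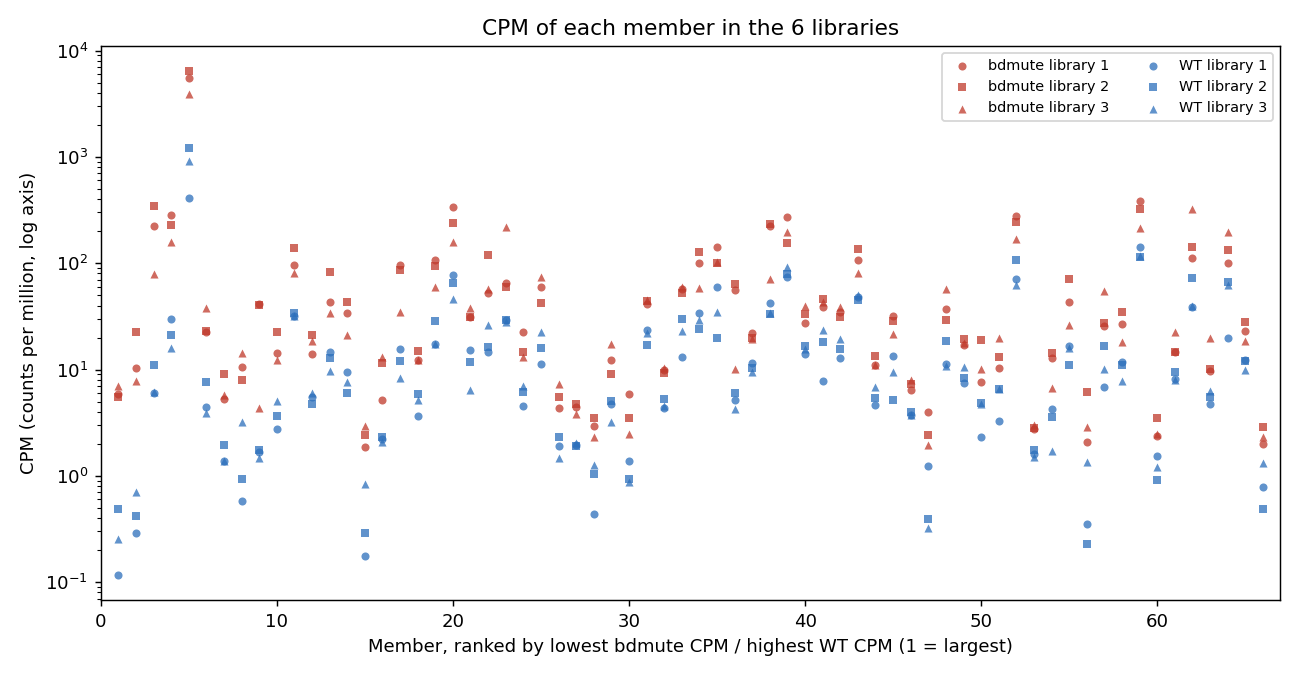
CPM (y axis, log scale) of the 66 members in each library (points), in the order of the ratio of lowest bdmute to highest WT value (x axis). Red bdmute points lie above blue WT points for each member because the rule requires it; the member at rank 5 lies between 3936 and 6405 CPM in the bdmute libraries.

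Together the members took a several times larger share of the counts in bdmute, where the rule fixes the direction and the lack of overlap. Their summed CPM was 9414, 10385 and 7142 in bdmute libraries 1, 2 and 3, against 1456, 2324 and 1944 in WT libraries 1, 2 and 3. The sums were 8980 ± 1664 in bdmute and 1908 ± 436 in WT (mean ± SD, n = 3 each), a ratio of 4.71. In bdmute the members thus held from 0.714% to 1.04% of all counts, and in WT from 0.146% to 0.232%.

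The greater part of the bdmute sum came from 1 gene, BdiBd21-3.4G0624100, which was printed here because it had the highest mean CPM in bdmute among the members called in the authors' deposited table. Its CPM was 5499, 6405 and 3936 in bdmute libraries 1, 2 and 3, against 407, 1208 and 909 in WT libraries 1, 2 and 3. The lowest bdmute value, in library 3, was 3.26 times the highest WT value, in library 2, so the genotypes were well apart although WT values themselves spanned almost 3-fold. By count it ranked 26, 24 and 26 among all genes in the bdmute libraries, against 202, 74 and 100 in the WT libraries. It alone held 58.4%, 61.7% and 55.1% of the members' sum in bdmute libraries 1, 2 and 3, against 27.9%, 52.0% and 46.8% in WT libraries 1, 2 and 3. Its log2 fold change in the edgeR fit was 2.55 ± 0.56 (SE). The length of the gene is not in the files, so its count says nothing of its level relative to other genes.

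Without that gene, the sums of the other 65 members on plain CPM were more even, above all in WT. They were 3915, 3980 and 3206 CPM in bdmute and 1049, 1117 and 1035 CPM in WT, in the order of library number. The means were 3700 ± 429 CPM in bdmute and 1067 ± 43.7 CPM in WT (SD, n = 3 each), a ratio of 3.47 in place of 4.71. The coefficient of variation (SD over mean) of the sum was 11.6% in bdmute and 4.09% in WT, against 18.5% in bdmute and 22.8% in WT with the gene included. In both cases bdmute library 3 was the lowest of its genotype. The evenness in WT depends on the scaling. TMM gave WT library 3 a factor of 1.16, against 0.849 and 0.866 for WT libraries 1 and 2, so the WT sums are less level on that scale.

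**Figure D3:**
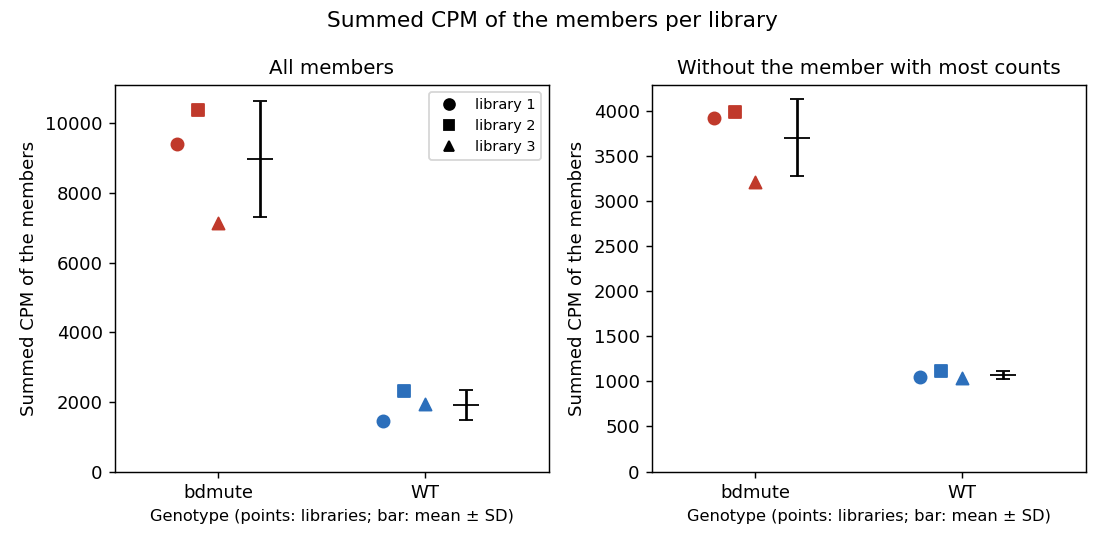
Summed CPM of the members (y axis, from 0) per library, for bdmute (red) and WT (blue), with all members at the left and without the member with most counts at the right. Points are libraries and black bars are the mean ± SD (n = 3 each); without that gene the bdmute libraries hold 3206 to 3980 CPM and the WT libraries 1035 to 1117 CPM.

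The member with the largest gap was BdiBd21-3.2G0318000, and it is printed here for that gap. It had 170, 126 and 206 counts in bdmute libraries 1, 2 and 3, against 4, 15 and 8 counts in WT libraries 1, 2 and 3. In CPM this was 5.93, 5.50 and 7.06 in bdmute, against 0.117, 0.486 and 0.257 in WT. The bdmute libraries were close to each other, with a coefficient of variation of 13.1%, whereas the few WT counts varied by 65.1%. Its lowest bdmute value was 11.3 times its highest WT value, and its log2 fold change was 4.25 ± 0.49 (SE) in the edgeR fit.

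The other members with the steepest differences were less steady in bdmute. The member ranked 2 by the ratio had 10.3, 22.3 and 7.74 CPM in bdmute libraries 1, 2 and 3, against 0.292, 0.422 and 0.708 CPM in WT libraries 1, 2 and 3. The member ranked 3 had 222, 347 and 79.1 CPM in bdmute, against 6.07, 10.9 and 6.11 CPM in WT. Both had their lowest bdmute value in library 3, and their ratios of means, 28.4 and 28.1, were the highest of the 66. The member ranked 4 had 283, 228 and 158 CPM in bdmute, against 29.8, 20.9 and 15.8 CPM in WT, and in it library 3 was the lowest of both genotypes.

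Members ranked from 6 to 16 had gaps from 2.25 to 2.98 down to rank 15 and 2.23 at rank 16, and their coefficients of variation in WT ran from 2.93% to 89.8%. The member ranked 6 had 22.7, 22.8 and 38.2 CPM in bdmute libraries 1, 2 and 3, against 4.46, 7.62 and 3.92 CPM in WT libraries 1, 2 and 3. The member ranked 12 had 14.02, 21.3 and 18.7 CPM in bdmute, against 5.51, 4.77 and 6.05 CPM in WT. In the first of these the highest bdmute value was in library 3, and in the second it was in library 2. The member ranked 11 was almost level in WT, with 95.3, 140.4 and 80.2 CPM in bdmute against 32.02, 33.8 and 32.2 CPM in WT. The member ranked 8 was the opposite case, with 10.6, 7.94 and 14.35 CPM in bdmute against 0.583, 0.940 and 3.18 CPM in WT, where library 3 was several times above the other WT libraries.

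Of the 14 members over 100 CPM in bdmute, those ranked 3, 4 and 5 had gaps of 7.24, 5.31 and 3.26, and the gaps of the others lay between 1.51 and 2.37. After the gene with most counts, the highest mean belonged to the member ranked 59, with 383, 326 and 216 CPM in bdmute libraries 1, 2 and 3, against 140.8, 114 and 118 CPM in WT libraries 1, 2 and 3. The member ranked 52 had 276, 242 and 168 CPM in bdmute, against 71.1, 106.5 and 62.8 CPM in WT. Both were lowest in library 3 within bdmute. The member ranked 39 was not, with 272, 156 and 195 CPM in bdmute against 74.3, 78.6 and 92.6 CPM in WT.

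At the other end were members with small but even differences. The member ranked 53 had the lowest ratio of means, 1.77, and the smallest spread in bdmute: 2.76, 2.84 and 3.02 CPM in bdmute libraries 1, 2 and 3, against 1.60, 1.75 and 1.51 CPM in WT libraries 1, 2 and 3. These rest on 79, 65 and 88 counts in bdmute and 55, 54 and 47 counts in WT. At such counts, counting error alone exceeds the spread seen in bdmute, so nothing is read from its evenness. The member ranked 31 had 41.3, 44.3 and 45.5 CPM in bdmute, against 23.5, 17.0 and 21.9 CPM in WT. In both, no bdmute library stood apart. Over all 66 members the coefficient of variation had a median of 29.1% in bdmute and 24.2% in WT, with ranges of 4.62% to 79.2% and 2.73% to 95.9%. The medians over the 14160 genes with 50 counts in each bdmute library were 26.4% in bdmute and 28.4% in WT.

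The largest spread within bdmute came from library 3. In 8 members, bdmute library 3 held less than 0.5 times the mean of bdmute libraries 1 and 2, and in 4 members it held at least 2 times that mean. The extreme on the low side, ranked 9, had 40.9, 40.2 and 4.32 CPM in bdmute libraries 1, 2 and 3, against 1.66, 1.75 and 1.48 CPM in WT libraries 1, 2 and 3. The member ranked 36 had a similar profile, with 56.3, 64.3 and 10.1 CPM in bdmute against 5.13, 5.999 and 4.25 CPM in WT. In both genes WT library 3 was also the lowest WT library, but by a much smaller step. On the high side, the member ranked 23 had 65.2, 59.2 and 219 CPM in bdmute libraries 1, 2 and 3, against 29.4, 29.3 and 28.0 CPM in WT libraries 1, 2 and 3. Each genotype has 1 library numbered 3, so whether this difference itself differed between genotypes was not tested.

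**Figure D4:**
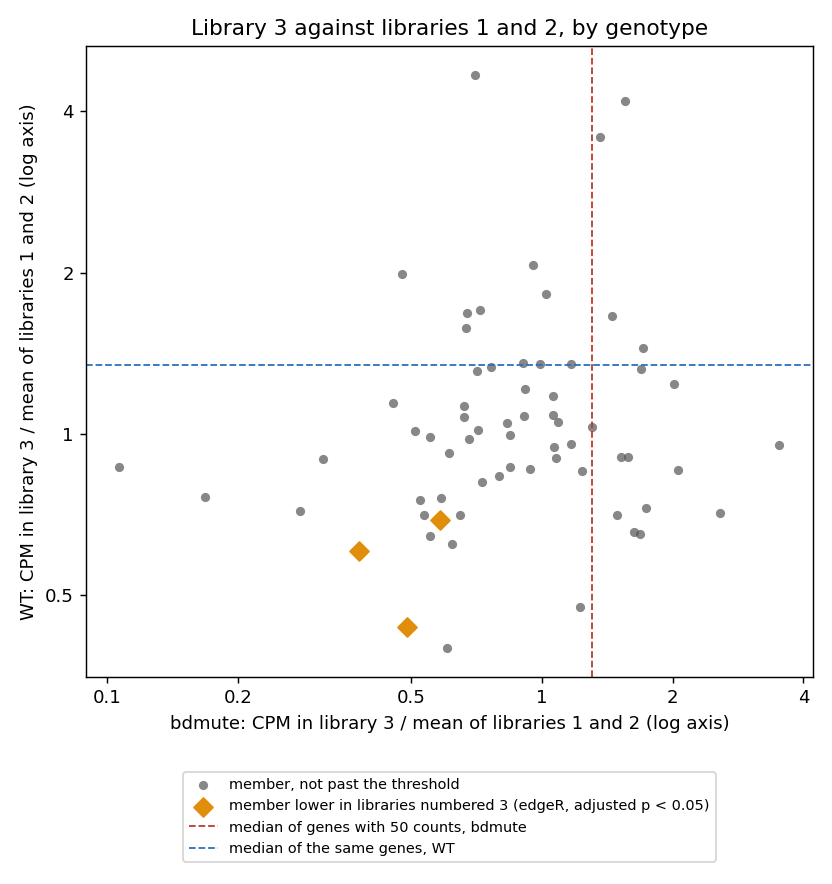
Ratio of CPM in library 3 to the mean of libraries 1 and 2 for each member, in bdmute (x axis) and in WT (y axis), both on log scales. Dashed lines are the medians of the 14160 genes with 50 counts in each bdmute library, 1.30 in bdmute and 1.34 in WT; most members lie below and left of them, and the 3 orange members passed the edgeR test as lower in the libraries numbered 3.

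Relative to most genes, the members were low in the libraries numbered 3. The median ratio of library 3 to the mean of libraries 1 and 2 was 0.846 in bdmute and 0.968 in WT over the members, against 1.30 and 1.34 over the 14160 genes. Both ratios were below 1 in 22 members, both were at least 1 in 12, only that of bdmute was below 1 in 18 and only that of WT was below 1 in 14. On plain CPM, bdmute library 2 was the highest bdmute library in 28 members (42.4%) and bdmute library 3 in 24 (36.4%), against 14.4% and 66.7% of the 14160 genes. A term that marks these 2 libraries was fitted beside genotype in edgeR over all 20998 genes, with library sizes scaled by TMM, the trimmed mean method that sets aside genes with extreme ratios. Its log2 fold change was negative in 54 of the 66 members (81.8%) with a median of -0.42, whereas 48.3% of all genes were negative and their median was 0.02.

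The sign of these log2 fold changes depends on the scaling. With plain total counts in place of TMM, 33 of 66 members were negative, with a median of -0.00 for the members against 0.44 for all genes. The members' median thus lay below that of all genes on either scale, by about the same step. A change of scaling shifts all genes by nearly the same amount, so this likeness was fixed in advance and is no support. The rule chose members on plain CPM of all 6 libraries, those numbered 3 included. Its part in the members' low place in the libraries numbered 3 was not tested.

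In that fit, 3 of the 66 members (4.55%) were lower in the libraries numbered 3 and 0 were higher in edgeR's quasi-likelihood test, at a Benjamini-Hochberg p-value under 0.05 over all genes. Among all genes tested, 2.66% were lower and 2.29% were higher by that rule. Among the genes with 50 counts in each bdmute library, 3.23% were lower and 1.96% were higher. The shares of the members in the edgeR fit were near the background. DESeq2 called 15 members lower (22.7%) and 0 higher, where it called 9.01% of all genes with an adjusted p-value lower, 5.46% higher, and 11.3% of the genes with 50 counts in each bdmute library lower. No test was made of the difference between these shares. Before adjustment, 22 of the 66 members and 5862 of the 20998 genes tested passed 0.05 in edgeR, and these shares lie close to each other. The 3 members called fell in the libraries numbered 3 of both genotypes. The member ranked 54, with the lowest adjusted p-value of 0.0264 in this edgeR fit, had 12.8, 14.4 and 6.65 CPM in bdmute libraries 1, 2 and 3, against 4.23, 3.60 and 1.71 CPM in WT libraries 1, 2 and 3. The calls were not stable to leaving out 1 library, for the members or for all genes. Without bdmute library 1, bdmute library 2 or WT library 1, 0 of the members were called, where 0, 0 and 67 of all genes tested were called. Leaving out WT library 2 gave 13 members, all lower (19.7%). In that last fit 10.2% of all genes tested were lower and 8.79% higher, and 12.2% of the genes with 50 counts in each bdmute library were lower.

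Membership itself depends on how libraries are scaled. TMM raised the effective size of both libraries numbered 3, by a factor of 1.27 in bdmute and 1.16 in WT, and set the other libraries at 0.956 to 0.963 of their totals in bdmute and at 0.849 to 0.866 in WT. On TMM-adjusted CPM, 36 genes met the rule, of which 29 were among the 66, and 122 genes met it turned round in place of 90. Of the 23 members with a gap of at least 2-fold, 19 met the rule on that scale too, and of the other 43 members 10 did. The 66 members had no overlap between genotypes on that scale, with a lowest ratio of 1.01 and a median of 1.45. This lack of overlap was fixed in advance and is no support. TMM moved no bdmute library against a WT library by as much as the 1.5-fold that the rule requires. With TMM, bdmute library 3 was the lowest bdmute library in 47 of the 66 members (71.2%), against 41.7% of the 14160 genes with 50 counts in each bdmute library. The 47 were 29 of the 37 that no longer met the rule and 18 of the 29 that did. WT library 3 was likewise the lowest WT library in 40 of the 66 members (60.6%), against 36.5% of the 14160 genes.

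In a fit with genotype as the only term, edgeR's adjusted p-value was under 0.05 in 0 of the 66 members and in 0% of the 20998 genes tested. Before adjustment 1019 of the 20998 genes passed 0.05 in edgeR, about the share that passes this threshold where no gene differs. Among them were the 66 members, which the rule had chosen on this contrast. In DESeq2, 192 of 24539 genes passed after adjustment. All 66 log2 fold changes were positive, from 0.65 to 4.78 with a median of 1.49, while the median of all genes was 0.02. Scaling by total counts moved the median of all genes to 0.16 and that of the members to 1.65.

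The authors' deposited table, made by DESeq2 per its column names, called 31 of the 66 members at an adjusted p-value under 0.05, all higher in bdmute, where it called 0.2% of the 24539 genes with an adjusted p-value higher in bdmute. As table and rule rest on the same counts and the same contrast, nothing is read from this count. The same holds for the larger differences between genotypes in the members called, which the call itself selects. The 31 genes were 47.0% of the members and 63.3% of the 49 genes that table calls higher. All of the first 19 members by the ratio were among them, and the median ratio of lowest bdmute to highest WT library was 2.23 in the 31 and 1.60 in the other 35. For those 35, adjusted p-values in the authors' deposited table ran from 0.0530 to 0.984. Of the 18 genes that it called higher and that were not members, 13 had fewer than 50 counts in some bdmute library. The other 5 had no overlap between genotypes but a smaller gap.

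The 31 members called in the authors' deposited table summed to 7304, 8345 and 5089 CPM in bdmute libraries 1, 2 and 3, against 748, 1568 and 1277 CPM in WT libraries 1, 2 and 3. The other 35 summed to 2110, 2039 and 2054 CPM in bdmute, against 707, 757 and 666 CPM in WT. On plain CPM the sums of the 35 were nearly level within bdmute, with a coefficient of variation of 1.81%. Their ratio of means was 2.91, against 5.77 for the 31. TMM gave bdmute library 3 a factor of 1.27, against 0.963 and 0.956 for bdmute libraries 1 and 2, so the sums of the 35 are not level on that scale. Without BdiBd21-3.4G0624100, the other 30 summed to 1805, 1941 and 1152 CPM in bdmute, against 342, 360 and 369 CPM in WT, a ratio of 4.58. On plain CPM the sums of these 30 thus varied by 25.8% in bdmute, where library 3 was low, and by 3.88% in WT. On that scale the spread of the 31 in WT came with that 1 gene.

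Genes listed next to a member were more often higher in bdmute than genes at large. The rule did not use these genes, which were compared in the order of identifiers with members left out. Of the 87 genes tested that stood 1 row before or after a member, 17 (19.5%) had every bdmute library above every WT library, a pattern that 5.58% of all genes tested showed. The opposite pattern was seen in 3 of the 87 (3.45%) and in 3% of all genes tested. At 2 rows the share with bdmute above WT was 10.5%, at 3 rows 6.10%, and from 4 to 50 rows it lay between 4.17% and 8%. On TMM-adjusted CPM the share was 16.1% at 1 row, against 4.30% of all genes tested, and the opposite pattern was seen in 4.60%, against 5.04%. No test was made of these shares.

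**Figure D5:**
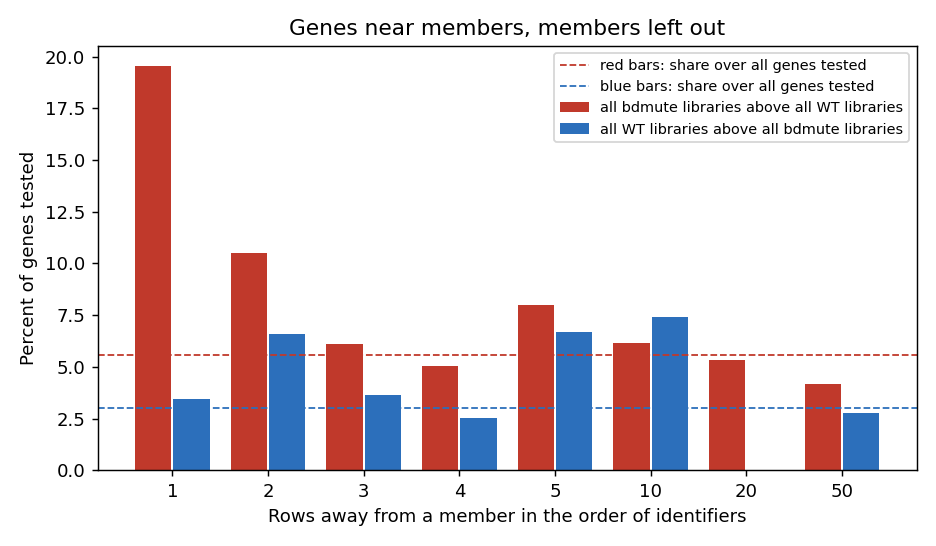
Percent of genes tested (y axis) without overlap between genotypes, by the number of rows from a member in the order of identifiers (x axis, members left out). Red bars are genes with all bdmute libraries above all WT libraries and blue bars the opposite; dashed lines give the shares over all genes tested, 5.58% and 3%, and the red bar at 1 row reaches 19.5%.

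These 17 genes stood beside 13 members, and 4 members had such a gene on both sides. In 14 of the 17, mean CPM in bdmute was lower than that of the member beside it, and 6 had fewer than 50 counts in some bdmute library. Their ratio of means ran from 1.53 to 58.4 with a median of 2.24, and 5 of them passed the 1.5-fold gap but not the minimum count. The highest ratio belonged to the gene beside the member ranked 9, with 132, 166 and 19 counts in bdmute libraries 1, 2 and 3, against 4, 3 and 0 counts in WT libraries 1, 2 and 3. It shared with that member the drop in bdmute library 3. Such sharing was not general: the gene beside the member ranked 8 had 1143, 824 and 180 CPM in bdmute against 175, 134 and 68.9 CPM in WT, lowest in library 3 of both genotypes, where that member was highest. The strand setting of the counting and the coordinates of the genes are not given in the sources used here, so reads of overlapping, antisense or near-identical neighbours cannot be told apart from those of the member.

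By the digit that opens the numeric part of their identifiers, 1 to 5, the members were 16, 16, 19, 7 and 8, which is between 0.335% and 0.623% of the genes with 50 counts in each bdmute library there. Among the members themselves, 4 pairs stood within 20 rows of each other. The only pair in adjacent rows had 340, 237 and 159 CPM in bdmute against 77.7, 65.6 and 46.3 CPM in WT for one gene, and 11.02, 13.3 and 11.03 CPM in bdmute against 4.67, 5.45 and 6.85 CPM in WT for the other, in the order of library number. Their profiles within a genotype differed, as the first was lowest in library 3 of both genotypes and the other was not.

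A pair 8 rows apart had much more alike profiles, and it was singled out after its values were seen. One gene had 222, 235 and 71.5 CPM in bdmute libraries 1, 2 and 3, against 42.5, 33.6 and 34.2 CPM in WT libraries 1, 2 and 3. The other had 96.1, 86.9 and 34.8 CPM in bdmute, against 15.7, 11.998 and 8.39 CPM in WT. In both, bdmute library 3 was the lowest of its genotype and still above all WT libraries. With 1 row added at each end, this stretch of identifiers held 11 genes, of which 9 were tested and 6 had every bdmute library above every WT library. The 4 that were not members are all among the 17 genes beside a member described above, so this 1 stretch supplied 4 of the 17. Of these 4, 3 shared the low value in bdmute library 3: they had 12.7, 12.1 and 3.12 CPM, 2.76, 3.88 and 0.651 CPM, and 60.4, 62.5 and 22.6 CPM in bdmute libraries 1, 2 and 3. The 3 tested genes in the middle of the stretch overlapped between genotypes, with ratios of means from 1.10 to 1.497.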

How the data were processed

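Messenger RNA libraries from mature leaf zones were compared, 3 of bdmute and 3 of WT. The authors deposited raw counts per gene, per the file headers from alignment files. The submitters' processing notes name FastQC, Bowtie2 and DESeq2, without versions. The counting tool, genome build and strand setting are not given in the sources used here. The authors' deposited table gives, per the file headers, a mean normalized signal, log2 fold changes with standard errors, a Wald score and p-values. A rerun of DESeq2 1.42.0 as bdmute over WT came within 5.19e-05 of its log2 fold changes, which fixes their direction.

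CPM was computed on column totals. The fits used edgeR 4.0.16 in R 4.3.3 (filterByExpr, TMM, glmQLFit, glmQLFTest, Benjamini-Hochberg over 20998 genes with 99.9% of the counts, threshold 0.05), and SE is the absolute log2 fold change over the root of F. No row lacked a gene identifier. The fits were checked on simulated counts. Libraries of 1 genotype differed by a chi-square of at least 44.3 per degree of freedom, so none was a copy.

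The members, lists and tests were chosen with earlier results of these data known. Printed identifiers are limited to 2: the member with the highest mean CPM in bdmute among those called in the authors' deposited table, and of the rest the one with the largest gap. Planned lists of stomatal, cell type and other genes were not analysed here because no identifier matched a name. Alternatives covered scaling, filters, test, replicate block and leaving out each library.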

Additional observations from a re-analysis of the deposited data

How the results depend on the processing

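The 66 members became 36 genes on TMM-adjusted CPM, 33 with DESeq2's size factors, 114 with a minimum of 10 counts, 49 with 200 counts, 198 at a fold of 1.2 and 23 at a fold of 2. Leaving out 1 library loosens the rule and gave from 122 genes (without WT library 1) to 210 (without bdmute library 3), and both libraries numbered 3 left out, chosen after the data were seen, gave 364. Between genotypes, edgeR called 0 of 20998 genes and 0 members. DESeq2 with default settings called 192 of 24539 genes and 31 members, and with the replicate block 415 of 22337 genes and 53 members. A term for the libraries numbered 3 in edgeR, also chosen after the data were seen, gave 23 of 20998 genes and 2 members. Of these genes, 49, 138 and 6 were higher in bdmute, in that order. All members called were higher, but the rule chose them on this contrast, so their counts are no support. The count was 0 in the other edgeR fits, the replicate block included, where a count of 0 shows no stability. The block rests on a number only: deviations of same-numbered libraries correlated at 0.70, -0.20 and 0.72 for numbers 1, 2 and 3, and bdmute library 2 correlated better with WT library 1, at 0.46.

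Between the libraries numbered 3 and the others, 1040 of 20998 genes and 3 of 66 members were called. These became 3315 of 22907 genes and 15 members in DESeq2, and 1751 of 29742 genes and 5 members without a filter on low counts. With the replicate block they became 1743 of 20998 genes and 5 members. Total counts gave 5125 genes, 4478 higher and 647 lower in place of 481 and 559, with 2 members. Leaving out 1 library gave from 0 to 4113 genes and from 0 to 13 members. It gave 0 genes without bdmute library 1 or 2, 1 without bdmute library 3, 67 without WT library 1, 3 without WT library 3 and 4113 without WT library 2. Without a library numbered 3, the lone one left is assumed to vary like the others. The cause was not tested. The log2 fold changes of both printed genes stayed positive in 14 alternatives each. The rule fixes that direction. Low counts limit the 8 members with fewer than 50 counts in each WT library.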
